A study of Mus musculus with 10 samples.

Results

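The 10 genes described here, *Tgfb1*, *Pdgfrb*, *Acta2*, *Des*, *Reln*, *Lox*, *Loxl2*, *Mmp2*, *Mmp12* and *Timp1*, mark hepatic stellate cells and their activation or build, crosslink and degrade the extracellular matrix. They were taken by gene symbol, and all 10 were found among the 24052 symbols of the deposited count files. RNA sequencing had been performed on whole livers of 5 wild-type and 5 Ndrg3 LKO mice, with 1 library per liver, to compare livers with and without *Ndrg3*. Ndrg3 LKO mice carried an *Ndrg3* f/f allele whose exon 4 is removed by Cre recombinase under the albumin promoter, so the deletion is aimed at hepatocytes and not at the cells that usually express the 10 genes. The allele was freed of its selection cassette with Flp recombinase. The controls are called wild-type littermates, and the study's methods do not say whether they carried floxed alleles or Cre. Both groups were labelled as C57BL/6 in background and fed ad libitum, and the floxed allele had been backcrossed to C57BL/6N. The methods place the mice at 8 to 10 weeks of age, as males unless stated otherwise, whereas a legend for the same livers gives 10 to 12 weeks. The legends also count 4 Ndrg3 LKO livers without saying which was left out, and all 5 deposited are used here.

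Hepatic stellate cells lie between hepatocytes and sinusoidal endothelium and store vitamin A when quiescent. On activation, they turn into contractile myofibroblasts that secrete collagen. TGF-β drives matrix production by these cells and PDGF drives their proliferation, while lysyl oxidases stiffen the collagen that is laid down. Matrix metalloproteinases degrade the matrix, and tissue inhibitors of metalloproteinases hold them back. Collagen deposition is the net result of these activities, and resident and recruited macrophages supply both TGF-β and metalloproteinases.

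Of the 10 genes, *Tgfb1*, *Pdgfrb*, *Loxl2*, *Mmp2* and *Mmp12* rose in Ndrg3 LKO livers, and none fell. *Acta2*, *Reln*, *Lox* and *Timp1* had higher means in Ndrg3 LKO livers without passing the test, and the comparison of *Des* depended on 1 wild-type liver. Whole liver was sequenced, so fewer or more cells of a type cannot be told apart from less or more RNA per cell. All 10 were lowly expressed, with group means between 0.0406 and 34.4 CPM, which is the read count of a gene relative to the reads of its library. Library sizes were scaled with the TMM method, which corrects for differences in composition. edgeR's quasi-likelihood test was run on genes that reached 1 CPM in 5 or more livers, which kept 7 of the 10. This filter used CPM by library size, before TMM scaling, whereas all levels given are TMM-normalized, so a level just above or below 1 CPM can differ from what the filter counted. *Timp1*, *Lox* and *Mmp12* did not reach this level. Of the 7, 4 rose and 0 fell at an adjusted p under 0.05, where 25.6% of all 11208 genes tested rose and 23.0% fell, 48.6% in either direction. Scaled by library size alone, 5834 genes rose and 1005 fell instead of 2865 and 2578, and the typical gene shifted, with a median at 0.56 instead of 0.03. *Mmp2* reached 1 CPM by library size in no wild-type liver, so it entered the test only through the Ndrg3 LKO livers. Another filter, the mean CPM filter, took genes with a mean of at least 0.2 CPM over all livers. With it, all 10 genes were tested and 5 rose, against 23.9% of 13422 genes. The gene added was *Mmp12*, whose wild-type mean of 0.0406 CPM was under 0.2 CPM. *Mmp12* thus passed this filter only through the Ndrg3 LKO livers, as did *Lox* and *Timp1*, with wild-type means of 0.118 and 0.136 CPM.

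Between 20872262 and 24747870 reads were counted per wild-type liver and between 23474693 and 30450057 per Ndrg3 LKO liver. At these depths, 3 counts corresponded to between 0.0728 and 0.179 CPM, a floor that covers counting error only. The targeted gene separated the groups. *Ndrg3* was at 17.8, 17.8, 16, 19.1 and 21.9 CPM in wild-type replicates 1 to 5 and at 7.08, 8.06, 9.18, 7.79 and 8.26 CPM in Ndrg3 LKO replicates 1 to 5. Every Ndrg3 LKO liver was below every wild-type liver, and the log2 fold change was -1.20 ± 0.13 (SE, adjusted p = 3.87e-05, edgeR). Reads were counted over all exons together, and exon 4 itself has no count of its own.

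A pair of libraries stood apart from their groups. Wild-type replicate 5 contained RNA of skeletal muscle genes. The summed level of 8 skeletal muscle markers, led by the skeletal actin gene *Acta1*, was 358 CPM in this liver, 0.558 to 0.966 CPM in the other wild-type livers and 1.55 to 2.29 CPM in Ndrg3 LKO livers. Ndrg3 LKO replicate 5 lay closer to wild-type than the rest of its group. On the principal component that held 68.7% of the variance, it scored 14.1, between the wild-type livers at -49.9 to -43.1 and Ndrg3 LKO replicates 1 to 4 at 51.1 to 56.6. Its 12 hepatocyte markers summed to 179003 CPM, within the wild-type range of 155139 to 194139 CPM, whereas those of Ndrg3 LKO replicates 1 to 4 summed to 50616 to 58923 CPM. Taken singly, 5 of the 12 were within the wild-type range in this liver, 3 were below and 4 above every wild-type liver. *Alb*, the albumin gene and the most abundant of these markers, was at 108000 CPM in Ndrg3 LKO replicate 5 and at 21000 to 26400 CPM in replicates 1 to 4. Results are therefore given with all 10 livers, and without these libraries where this matters.

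**Figure D1:**
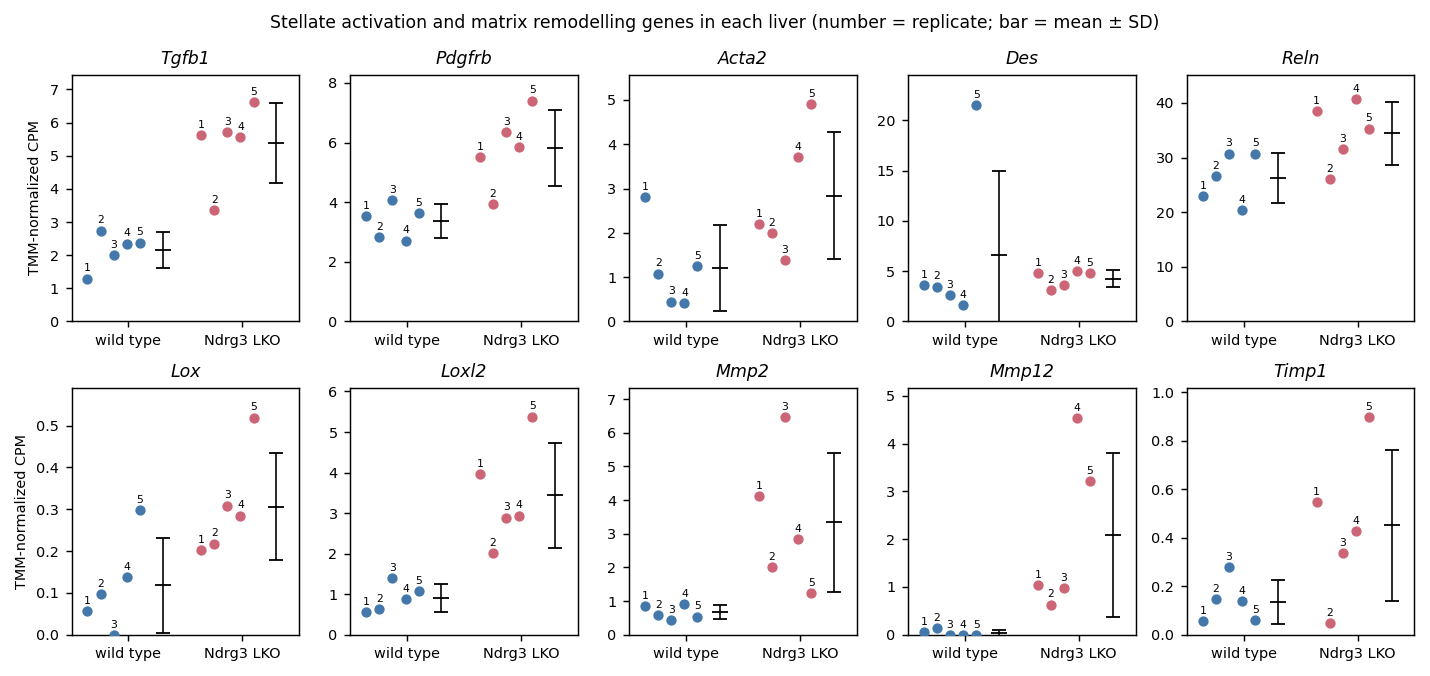
Level of each of the 10 genes in every liver. The vertical axes show TMM-normalized CPM on a linear scale starting at 0, points are single livers numbered by replicate (blue, wild-type; red, Ndrg3 LKO), and bars give the mean ± SD (n = 5). For *Tgfb1*, *Loxl2*, *Mmp2* and *Mmp12*, all 5 Ndrg3 LKO livers lie above all 5 wild-type livers, while wild-type replicate 5 stands alone for *Des* at 21.5 CPM and its SD bar is cut at 0.

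*Tgfb1* encodes TGF-β1, the ligand that drives matrix production by stellate cells. It lies on the plus strand of chromosome 7 of mm9, from 26472021 to 26490096. Its level was 1.29, 2.74, 2.01, 2.35 and 2.38 CPM in wild-type replicates 1 to 5. In Ndrg3 LKO replicates 1 to 5, it was 5.61, 3.35, 5.72, 5.57 and 6.61 CPM. The groups did not overlap, with Ndrg3 LKO replicate 2 lowest of its group and wild-type replicate 1 lowest of all. The mean rose from 2.15 ± 0.547 to 5.37 ± 1.21 CPM (SD, n = 5), a log2 fold change of 1.31 ± 0.24 (SE, adjusted p = 0.00111). The exact permutation p for *Tgfb1* was 0.00794 (2-sided, over all splits of the livers), the smallest this design can give. Groups lay apart in this direction for 15.6% of all genes tested.

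*Pdgfrb* encodes the receptor through which PDGF stimulates stellate cells and pericytes. Wild-type replicates 1 to 5 had 3.54, 2.84, 4.07, 2.71 and 3.64 CPM of *Pdgfrb*. Ndrg3 LKO replicates 1 to 5 had 5.50, 3.93, 6.34, 5.85 and 7.41 CPM. Only Ndrg3 LKO replicate 2 fell within the wild-type range, just under wild-type replicate 3, and the other 4 were above it. This rise had a log2 fold change of 0.79 ± 0.20 (SE, adjusted p = 0.00708, edgeR), with an exact permutation p of 0.0159.

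*Acta2* encodes smooth muscle α-actin, the usual marker of activated stellate cells, which smooth muscle of vessels also expresses. In mm9, the gene spans 34315580 to 34329826 of chromosome 19 (minus strand). It was at 2.81, 1.08, 0.446, 0.414 and 1.25 CPM in wild-type replicates 1 to 5 and at 2.19, 1.99, 1.39, 3.71 and 4.91 CPM in Ndrg3 LKO replicates 1 to 5. Wild-type replicate 1 was above 3 of the Ndrg3 LKO livers, and the other 4 wild-type livers were below all Ndrg3 LKO livers. The log2 fold change of 1.24 ± 0.51 (SE) missed the threshold (adjusted p = 0.0610, edgeR), and the exact permutation p was 0.0635. Without wild-type replicate 1 it was 1.81 (adjusted p = 0.0111), and without Ndrg3 LKO replicate 3 it was 1.41 (adjusted p = 0.0422). *Acta2* also passed with DESeq2, with log2 fold change 1.24 (adjusted p = 0.0285), and in all in 6 of 19 alternatives. It did not pass without Ndrg3 LKO replicate 5, its highest liver, at 0.95 (adjusted p = 0.121, edgeR), nor without wild-type replicate 3, at 1.02 (adjusted p = 0.132), nor with quantile normalization, at 0.68 (adjusted p = 0.0884, limma). The smooth muscle myosin gene *Myh11*, looked up after these values had been seen, was likewise highest in wild-type replicate 1, at 2.92 CPM against 0.46 to 0.835 CPM in the other wild-type livers and 0.662 to 2.27 CPM in Ndrg3 LKO livers. The part of vessel smooth muscle in the *Acta2* values was not tested.

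*Des* encodes desmin, an intermediate filament of stellate cells in rodents and of all muscle. It is on the plus strand of chromosome 1 of mm9, from 75356904 to 75365154. It was at 3.60, 3.47, 2.62, 1.66 and 21.5 CPM in wild-type replicates 1 to 5 and at 4.81, 3.11, 3.63, 4.99 and 4.82 CPM in Ndrg3 LKO replicates 1 to 5. The liver with 21.5 CPM is the one with skeletal muscle RNA, and among the other 4 wild-type livers only replicates 1 and 2 exceeded an Ndrg3 LKO liver, replicate 2. With all livers, the log2 fold change was -0.62 ± 0.59 (SE, adjusted p = 0.408). Without wild-type replicate 5, it was 0.57 ± 0.26 (SE, adjusted p = 0.0991, edgeR), the opposite direction, and the wild-type mean dropped from 6.57 to 2.84 ± 0.899 CPM (SD, n = 4) against 4.27 ± 0.847 CPM in Ndrg3 LKO livers. *Des* therefore passed the test in neither direction.

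*Reln* encodes reelin, a secreted glycoprotein best known from neuronal migration, which quiescent and activated stellate cells also express. In mm9, it occupies 21390272 to 21850523 of chromosome 5 (minus strand), where 6 other annotated genes overlap it. It had the most counts of the 10 genes, with 22.9, 26.6, 30.7, 20.4 and 30.7 CPM in wild-type replicates 1 to 5 and 38.5, 26.1, 31.6, 40.7 and 35.3 CPM in Ndrg3 LKO replicates 1 to 5. Ndrg3 LKO replicate 2 lay inside the wild-type range, and the other 4 were above it. The log2 fold change of 0.39 ± 0.16 (SE) was the smallest of those above 0 and missed the threshold across all genes (adjusted p = 0.0585, edgeR). The exact permutation p of *Reln* on its own, unadjusted, was 0.0476. *Reln* passed without Ndrg3 LKO replicate 2, at a log2 fold change of 0.47 (adjusted p = 0.0227).

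*Lox* and *Loxl2* encode lysyl oxidases, which oxidize lysines of collagen and elastin so that the fibres become covalently crosslinked. *Loxl2*, on the plus strand of chromosome 14 of mm9 from 70008978 to 70095640, was at 0.562, 0.636, 1.39, 0.874 and 1.07 CPM in wild-type replicates 1 to 5. It was at 3.97, 2.01, 2.89, 2.94 and 5.38 CPM in Ndrg3 LKO replicates 1 to 5. The groups did not overlap, and the highest level was in Ndrg3 LKO replicate 5. *Loxl2* rose with a log2 fold change of 1.91 ± 0.32 (SE, adjusted p = 0.000684, edgeR), which was 1.69 (adjusted p = 0.000588) without Ndrg3 LKO replicate 5. *Lox* was close to the floor, and its counts in the wild-type livers, by replicate, were 1, 2, 0, 3 and 5. Those in the Ndrg3 LKO livers were 7, 9, 12, 10 and 11. Every Ndrg3 LKO liver had more *Lox* counts than every wild-type liver, but after scaling wild-type replicate 5, at 0.298 CPM, was above 3 of them. Over all livers of a group, 49 against 11 counts gave a ratio of *Lox* rates of 2.47 (95% interval 1.27 to 5.26, counting error only). Its log2 fold change under the mean CPM filter, 1.27 ± 0.60 (SE), missed the threshold (adjusted p = 0.0970, edgeR). The unadjusted exact permutation p was 0.0397.

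*Mmp2* encodes gelatinase A, a metalloproteinase made by stellate cells and fibroblasts that cleaves denatured collagen and basement membrane collagen. It lies on the plus strand of chromosome 8 of mm9, from 95351227 to 95377316. It was at 0.843, 0.587, 0.446, 0.92 and 0.536 CPM in wild-type replicates 1 to 5 and at 4.12, 2.01, 6.47, 2.85 and 1.23 CPM in Ndrg3 LKO replicates 1 to 5. The groups did not overlap. Ndrg3 LKO replicate 3 was highest and Ndrg3 LKO replicate 5 lowest of its group, whereas replicate 5 was highest for *Loxl2*, *Acta2*, *Pdgfrb* and *Tgfb1*. The mean rose from 0.667 ± 0.205 to 3.34 ± 2.05 CPM (SD, n = 5). The log2 fold change of *Mmp2* was 2.32 ± 0.43 (SE, adjusted p = 0.00121), and 2.25 ± 0.43 (SE, adjusted p = 0.00139, edgeR) with the mean CPM filter.

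*Mmp12* encodes macrophage elastase, a metalloproteinase known from macrophages that degrades elastin. Its counts by replicate were 1, 3, 0, 0 and 0 for wild-type. In contrast, Ndrg3 LKO livers had 36, 26, 38, 159 and 68. All 5 wild-type livers were thus at or under the floor of 3 counts and all 5 Ndrg3 LKO livers above it, at 0.631 to 4.54 CPM. Groups lay apart in this direction for 15.8% of the genes with a mean of at least 0.2 CPM. Summed over livers, 327 against 4 counts gave a ratio of rates of 45.3 (95% interval 17.5 to 167, counting error only), the largest difference among the 10 genes. The log2 fold change under the mean CPM filter, 5.42 ± 0.89 (SE, adjusted p = 0.000577, edgeR), depends on the prior count that stands in for the zeros. *Mmp12* passed this filter only through the Ndrg3 LKO livers. With no filter on low counts, its log2 fold change was 5.43 (adjusted p = 0.000347, edgeR). Of the 4 wild-type counts, 3 were in replicate 2, and without this liver the log2 fold change of *Mmp12* was 6.82. In the annotation, *Mmp12* runs from 7344381 to 7369499 on the plus strand of chromosome 9 of mm9 and overlaps *Mmp1b* on the opposite strand, which had 0 counts in every liver.

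Since *Mmp12* was nearly silent in wild-type livers, a promoter sequence of this gene is shown. It was picked because it holds the motif named below. RefSeq gives promoters for 6 of the 10 genes in the newer build GRCm38.p6, 7 promoters in all, because *Mmp12* has an alternative start. They were searched on both strands for TGANTCA, the core of the motif bound by AP-1, the FOS and JUN factors that control several metalloproteinase genes. Only the promoter shown, the 250 bases at chr9:7347124-7347373 (plus strand, GRCm38.p6), contained it, and 6.75% of all 32851 promoters of this length did. The other *Mmp12* promoter, at chr9:7344147-7344396, had 0 matches. The capitals mark the match, which lies 44 to 38 bases before the start. A match of letters is a description and was not linked to binding by any measurement here.
Mmp12: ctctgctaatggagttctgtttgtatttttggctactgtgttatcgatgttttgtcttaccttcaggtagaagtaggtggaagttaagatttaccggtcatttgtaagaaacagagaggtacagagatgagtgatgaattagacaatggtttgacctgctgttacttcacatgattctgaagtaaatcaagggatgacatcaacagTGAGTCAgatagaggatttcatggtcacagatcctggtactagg

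*Timp1* encodes an inhibitor of metalloproteinases that activated stellate cells secrete. It lies on chromosome X of mm9, from 20447292 to 20451861, inside *Syn1* on the opposite strand. Wild-type livers had 1, 3, 5, 3 and 1 counts by replicate. Ndrg3 LKO livers had 19, 2, 13, 15 and 19. After scaling, Ndrg3 LKO replicate 2 was below every wild-type liver, at 0.0485 CPM, and the other 4 were above all of them, at 0.335 to 0.897 CPM. Over each group, 68 against 13 counts gave a ratio of *Timp1* rates of 2.90 (95% interval 1.59 to 5.72, counting error only). For *Timp1*, the log2 fold change under the mean CPM filter, 1.58 ± 0.67 (SE), missed the threshold (adjusted p = 0.0702, edgeR), as did the exact permutation test (p = 0.0635). *Syn1* had 1 to 3 counts in wild-type livers and 3 to 15 in Ndrg3 LKO livers, so reads of *Timp1* and *Syn1* could be mixed if strand was ignored in counting.

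**Figure D2:**
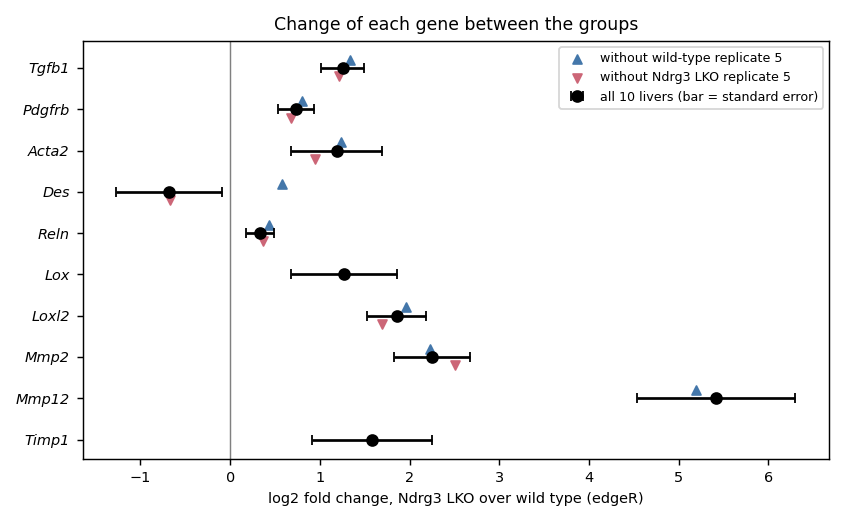
Log2 fold change of each gene between Ndrg3 LKO and wild-type livers from edgeR. Black circles are all 10 livers under the mean CPM filter with bars of 1 standard error, and triangles are the fits without wild-type replicate 5 (blue) or without Ndrg3 LKO replicate 5 (red), drawn where the gene passed the filter of those fits. *Mmp12* lies farthest right at 5.42, and *Des* moves from -0.68 to 0.57 without wild-type replicate 5.

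Ndrg3 LKO replicate 2 was lowest of its group for *Tgfb1*, *Pdgfrb*, *Des*, *Reln*, *Loxl2*, *Mmp12* and *Timp1*. Replicate 5 was highest for *Tgfb1*, *Pdgfrb*, *Acta2*, *Lox*, *Loxl2* and *Timp1*, although the sum of its hepatocyte markers was within the wild-type range. The number of genes that passed was the same, 4 of 7, without Ndrg3 LKO replicate 5, where 28.4% of all genes tested rose. Without wild-type replicate 5, 5 of 8 genes rose, against 23.4% of all genes. The gene added was *Mmp12*, which reached 1 CPM by library size in 4 Ndrg3 LKO livers and 0 wild-type livers and so entered only through the group where it was high, because the minimum was then 4 livers. *Tgfb1*, *Pdgfrb*, *Loxl2* and *Mmp2* passed without either liver and without both, with log2 fold changes between 0.68 and 2.51.

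Levels can be compared between genes only per length, as CPM per kilobase of annotated exon (RPKM). In wild-type livers, the order was *Des*, *Reln*, *Tgfb1*, *Acta2*, *Pdgfrb*, *Mmp2*, *Loxl2*, *Timp1*, *Lox* and *Mmp12*. *Des* led with 1.75 ± 2.23 RPKM (SD, n = 5) through wild-type replicate 5 alone. *Reln* followed with 1.32 ± 0.233 RPKM and *Mmp12* closed the order with 0.00562 ± 0.00888 RPKM. Among neighbours in this order, livers overlapped everywhere except between *Pdgfrb*, at no less than 0.495 RPKM, and *Mmp2*, at no more than 0.303 RPKM. In Ndrg3 LKO livers, *Tgfb1* came first with 2.10 ± 0.472 RPKM, before *Reln* with 1.74 ± 0.292, *Acta2* with 1.59 ± 0.808, *Des* with 1.14 ± 0.226 and *Mmp2* with 1.10 ± 0.676 RPKM. *Pdgfrb*, *Loxl2*, *Timp1*, *Mmp12* and *Lox* followed, and the livers of all neighbours in this order overlapped.

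For each of the 7 genes tested, the 3 genes with the most similar profile over the 10 livers were found, measured as the root mean square difference of centred log2(CPM + 1). *Acta2* was closest to *Tagln* at 0.313 and *Myl9* at 0.314, which encode transgelin and a myosin light chain of smooth muscle, followed by the actin-binding *Dbn1*. *Tgfb1* was closest to *Cygb* at 0.103, the cytoglobin gene that marks stellate cells. *Mmp2* was closest to the leukocyte integrin gene *Itgb2* at 0.176 and the cytokine gene *Il33* at 0.177. *Loxl2* was nearest to *Esam* at 0.155, an adhesion molecule of endothelium, with the mannose receptor gene *Mrc1* also among its 3 at 0.165. *Pdgfrb* was nearest to *Crb3* at 0.116, *Reln* to *Dcun1d5* at 0.0692 and *Des* to the troponin gene *Tnnt1* at 0.438. None of the 3 genes of *Des* remained among its nearest without wild-type replicate 5. Without Ndrg3 LKO replicate 5, 1 of 3 remained for *Acta2*, *Pdgfrb*, *Loxl2* and *Mmp2*. These are likenesses over all 10 livers, to which the difference between the groups contributes.

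The other genes of the pathways were followed in 10 lists with 86 genes, of which 58 were tested. Among them 36 rose and 5 fell, with a median log2 fold change of 0.94. Of all genes tested, 25.6% rose and 23.0% fell, with a median of 0.03, and the counts of each list below stand beside these shares. *Loxl4*, *Fbln2* and *Fbn1* reached 1 CPM by library size in no wild-type liver and entered only through the Ndrg3 LKO livers, where they were high. With the mean CPM filter, 78 pathway genes were tested and 45 rose, against 23.9% of all genes. Fibrillar collagens and matrix glycoproteins were the lists in which all genes tested rose, besides the reelin list with 1 gene tested. Of the fibrillar collagens, 5 of 5 rose, with a median log2 fold change of 1.59. *Col3a1*, *Col5a2* and *Col1a2* showed no overlap between groups. *Col3a1* went from 7.39 ± 1.55 to 25.6 ± 12.3 CPM (SD, n = 5), a log2 fold change of 1.79 ± 0.31 (SE, adjusted p = 0.000813, edgeR). It was highest in Ndrg3 LKO replicate 5, at 42.4 CPM, and lowest of that group in replicate 2, at 12.5 CPM.

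Of the matrix glycoproteins and proteoglycans, 13 of 13 tested rose, with a median log2 fold change of 1.29, and in 12 of them every Ndrg3 LKO liver was above every wild-type liver, which held for 15.6% of all genes tested. With the mean CPM filter, 15 of 15 rose, with a median of 1.31. Of the genes added, *Vcan* had a wild-type mean of 0.0539 CPM and passed this filter only through the Ndrg3 LKO livers. The wild-type mean of *Tnc*, also added, was 0.201 CPM, close to the limit of 0.2 CPM. With quantile normalization, 12 of the 13 rose. The elastin gene *Eln*, a substrate of both lysyl oxidases and macrophage elastase, went from 0.66 ± 0.507 to 2.89 ± 1.02 CPM (SD, n = 5, log2 fold change 2.12). The fibulin gene *Fbln2*, one of those that entered only through Ndrg3 LKO livers, and the laminin chain gene *Lamc1* rose with log2 fold changes of 1.69 and 1.65. *Lamc1* was highest in Ndrg3 LKO replicate 2, at 45.2 CPM, and lowest of that group in replicate 5, at 16.5 CPM.

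**Figure D3:**
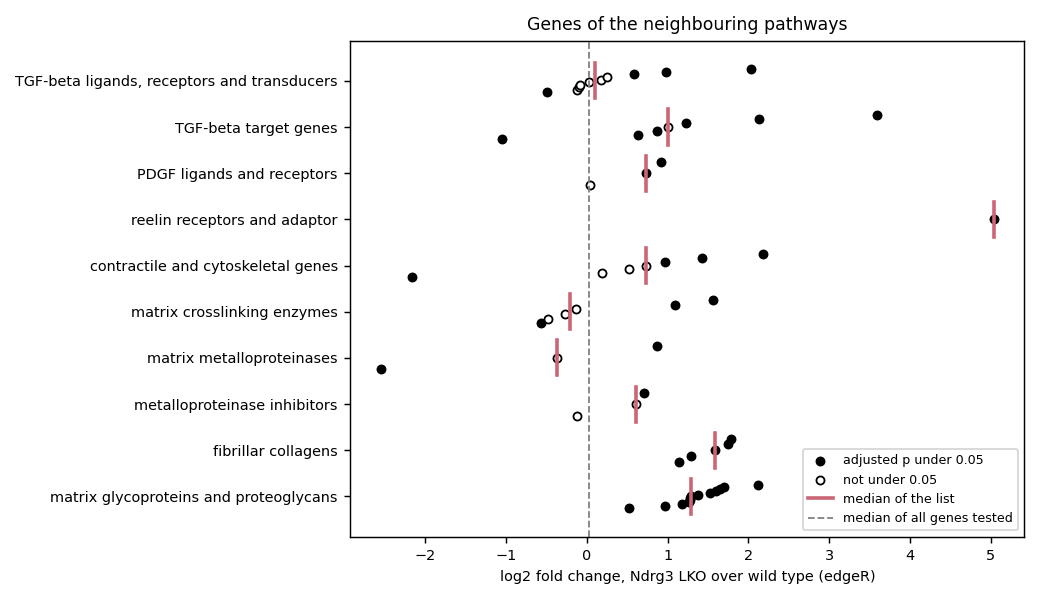
Log2 fold changes (edgeR, all 10 livers) of the genes tested in each pathway list. Each circle is a gene, filled where the adjusted p was under 0.05, the red line is the median of the list and the dashed line the median of all genes tested. All fibrillar collagens and matrix glycoproteins lie to the right, while TGF-β ligands, receptors and transducers scatter around 0 with a median of 0.10.

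Of 10 TGF-β ligands, receptors and transducers tested, 3 rose and 1 fell, beside 25.6% and 23.0% of all genes, with a median log2 fold change of 0.10. By library size alone, 6 rose and 0 fell, when 5834 of all 11208 genes rose. The receptors *Tgfbr1* and *Tgfbr2*, named after their values had been seen, had log2 fold changes of -0.09 and -0.12 and did not pass, and by library size alone these were 0.45 and 0.40. *Smad7*, an inhibitory SMAD that TGF-β itself induces, rose from 5.31 ± 1.10 to 21.6 ± 10.5 CPM (SD, n = 5, log2 fold change 2.03 ± 0.32 (SE), adjusted p = 0.000410, edgeR). *Bmp2* and *Ltbp4*, named after their values had been seen, rose with log2 fold changes of 0.97 and 0.59. *Smad4*, the common partner of the signalling SMADs, fell with a log2 fold change of -0.49, although by library size alone it was 0.03.

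Of 7 TGF-β target genes tested, 5 rose and 1 fell. *Id1*, an inhibitor of differentiation that BMPs induce most strongly, was at 2.21 to 12.5 CPM in wild-type and at 28.3 to 128 CPM in Ndrg3 LKO livers, and its lowest value of the latter was in replicate 5. Its log2 fold change was 3.60 ± 0.50 (SE, adjusted p = 0.000208). *Pmepa1*, a feedback inhibitor of the pathway, went from 1.45 ± 0.0971 to 6.33 ± 2.03 CPM (SD, n = 5, log2 fold change 2.13). *Skil*, *Tgfbi* and *Bambi*, named after their values had been seen, rose as well, and *Skil* and *Bambi* also encode inhibitors of TGF-β signalling. *Bambi* missed the threshold without wild-type replicate 5, at 0.65 (adjusted p = 0.0620, edgeR). *Fn1*, the fibronectin gene, which hepatocytes express at high levels for plasma fibronectin, fell from 1110 ± 193 to 533 ± 54.8 CPM (SD, n = 5, log2 fold change -1.05).

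Among PDGF ligands and receptors, 2 of 3 tested rose and 0 fell. *Pdgfa* had a log2 fold change of 0.73 ± 0.20 (SE) with no overlap between the groups, but 0.39 (adjusted p = 0.0515, limma) with quantile normalization, and *Pdgfra*, named after its values had been seen, one of 0.92. Of the reelin receptors *Vldlr* and *Lrp8* and the adaptor *Dab1*, only *Vldlr* was tested. *Vldlr*, which also binds triglyceride-rich lipoproteins, was at 0.562, 0.391, 1.28, 1.15 and 0.358 CPM in wild-type replicates 1 to 5 and at 23.6, 47.1, 26.9, 17.1 and 9.87 CPM in Ndrg3 LKO replicates 1 to 5. The log2 fold change of 5.04 ± 0.49 (SE, adjusted p = 2.03e-05, edgeR) was larger than that of any other gene tested in the 10 lists. The largest level was in Ndrg3 LKO replicate 2, the liver with the least *Reln* of its group.

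Of 7 contractile and cytoskeletal genes tested, 3 rose and 1 fell. The smoothelin gene *Smtn* rose from 1.91 ± 0.552 to 5.13 ± 1.13 CPM (SD, n = 5, log2 fold change 1.42), without overlap. *Tpm1* and *Vim* rose with log2 fold changes of 2.18 and 0.97. *Tagln* and *Myl9*, the nearest neighbours of *Acta2*, had log2 fold changes of 0.52 and 0.74 and did not pass (adjusted p = 0.144 and 0.0858, edgeR). *Tpm2* fell with a log2 fold change of -2.17, which became -1.06 (adjusted p = 0.0260) without wild-type replicate 5, where *Tpm2* was at 43.2 CPM against 4.46 to 7.25 CPM in the other wild-type livers. *Tpm1*, *Vim* and *Tpm2* were picked out once their values were known.

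Other crosslinking enzymes went both ways. Of 6 tested, 2 rose and 1 fell, and without Ndrg3 LKO replicate 5 it was 2 and 4 of 7, when 28.4% of all genes rose and 27.2% fell. Transglutaminase 2, encoded by *Tgm2*, went from 70.3 ± 18.8 to 208 ± 70.5 CPM (SD, n = 5, log2 fold change 1.57), and the lysyl oxidase-like gene *Loxl4* from 0.576 ± 0.276 to 1.24 ± 0.0983 CPM (log2 fold change 1.09), which missed the threshold with quantile normalization (0.36, adjusted p = 0.0612, limma). *Loxl4* also entered the test only through Ndrg3 LKO livers, and with the mean CPM filter 3 of 9 rose and 2 fell. *Plod1*, a lysyl hydroxylase that prepares collagen for crosslinking, fell with a log2 fold change of -0.56. By library size alone, *Plod1* was at -0.04 (adjusted p = 0.822, edgeR) and no longer passed.

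Of 13 other metalloproteinases, only *Mmp14*, *Mmp15* and *Mmp19* were expressed enough to be tested. *Mmp14*, a membrane-bound protease that activates the precursor of gelatinase A and was named after its values had been seen, rose with a log2 fold change of 0.87 ± 0.20 (SE, adjusted p = 0.00346). *Mmp15*, another membrane-bound member, fell from 29.9 ± 6.44 to 5.14 ± 2.41 CPM (SD, n = 5, log2 fold change -2.55 ± 0.32 (SE), adjusted p = 0.000100, edgeR), without overlap. Among metalloproteinase inhibitors, *Timp2* rose from 5.75 ± 1.40 to 9.39 ± 1.17 CPM (log2 fold change 0.71), and *Timp3* with 0.61 and *Reck* with -0.13 (0.42 by library size alone), the others tested and named after their values had been seen, did not pass.

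The markers of stellate and other cells are given beside these results. Of 12 quiescent stellate cell markers tested, 8 rose and 1 fell, with a median log2 fold change of 0.71. *Lrat*, which esterifies retinol for storage, went from 8.26 ± 2.18 to 20.4 ± 4.66 CPM (SD, n = 5, log2 fold change 1.31) and *Rgs5* from 1.25 ± 0.216 to 4.24 ± 2.5 CPM (log2 fold change 1.77), and *Nes*, which reached 1 CPM by library size in no wild-type liver, had a log2 fold change of 1.37. With the mean CPM filter the counts were the same, 8 and 1 of 12. *Cxcl12*, the most abundant gene of this list, fell from 269 ± 28.7 to 164 ± 21.4 CPM (log2 fold change -0.71), a call lost by library size alone (-0.20, adjusted p = 0.290, edgeR). The summed level of the list, dominated by *Cxcl12*, was 445 ± 19.1 against 442 ± 62.6 CPM. The markers of portal fibroblasts and mesothelium, another source of matrix genes, summed to 10.1 ± 2.94 against 13.1 ± 1.27 CPM, with 1 of 6 tested up and 1 down. *Cd34*, which vessels express too and which was named after its values had been seen, rose with a log2 fold change of 1.20. *Entpd2*, the most abundant, fell with a log2 fold change of -0.73, a call lost without any of wild-type replicates 1, 2 and 4 or Ndrg3 LKO replicates 2 and 4 (-0.71 to -0.61), or by library size alone (-0.23, adjusted p = 0.433, edgeR).

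Macrophage markers were higher in Ndrg3 LKO livers on average, but most overlapped between the groups. All 9 tested rose, with a median log2 fold change of 1.32, and the summed level was 141 ± 54.9 CPM in wild-type and 423 ± 210 CPM in Ndrg3 LKO livers. In 2 of the 9, every Ndrg3 LKO liver was above every wild-type liver, which held for 15.6% of all genes tested. With quantile normalization, 8 of the 9 rose. The sum was 645, 210, 649, 345 and 268 CPM in Ndrg3 LKO replicates 1 to 5, and replicate 3, with the highest *Mmp2*, also had the highest sum. Wild-type sums ran from 93.4 to 231 CPM, so Ndrg3 LKO replicate 2 lay within the wild-type range. *Mmp12* was highest in replicates 4 and 5, whose sums were below those of replicates 1 and 3. *Marco*, a scavenger receptor, had a log2 fold change of 4.30, *Cd68*, a lysosomal protein of macrophages, one of 1.63, and the Kupffer cell receptor *Clec4f*, the most abundant of the list, one of 1.11. The part of macrophages in the changes of *Tgfb1*, *Mmp2* and *Mmp12* was not tested.

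Of 10 liver endothelial markers tested, 9 rose, with a median log2 fold change of 1.17. Their summed level was 93 ± 9.36 against 191 ± 26.2 CPM, led by *Clec4g*. *Lyve1*, *Cdh5* and *Pecam1* rose with log2 fold changes of 1.99, 1.48 and 1.31. Cholangiocyte markers summed to 9.31 ± 4.37 against 10 ± 4.49 CPM, and 1 of 4 tested, *Sox9*, fell with a log2 fold change of -0.86, which was -0.29 (adjusted p = 0.377, edgeR) by library size alone. None of the 8 lymphocyte and neutrophil markers passed the filter, and with the mean CPM filter 7 were tested and 4 rose, with a median log2 fold change of 1.47, against 23.9% of all genes. They summed to 1.79 ± 0.527 against 7.32 ± 7.34 CPM, with 20.1 CPM in Ndrg3 LKO replicate 5, led by the neutrophil gene *S100a9*. Of 12 hepatocyte markers, 1 rose and 6 fell, beside 25.6% and 23.0% of all genes. Without Ndrg3 LKO replicate 5, 0 rose and 8 fell, when 27.2% of all genes fell, and without wild-type replicate 5, 0 rose and 4 fell, when 21.5% did. By library size alone, 3 hepatocyte markers rose and 6 fell, when 5834 of all 11208 genes rose and 1005 fell. With quantile normalization, 4 hepatocyte markers rose and 5 fell. *Apoa1*, *Fgb* and *Apob*, which encode secreted proteins of hepatocytes, fell with log2 fold changes of -2.34, -1.56 and -1.30, and *Apoc3*, named after its values had been seen, rose with 0.68. Without Ndrg3 LKO replicate 5, *Apoa1* was at -3.55. *Apoc3* missed the threshold without Ndrg3 LKO replicate 5 (adjusted p = 0.0516, edgeR) and without wild-type replicate 5 (adjusted p = 0.0607). The part of these other cell types in the changes of the 10 genes was not tested.

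**Figure D4:**
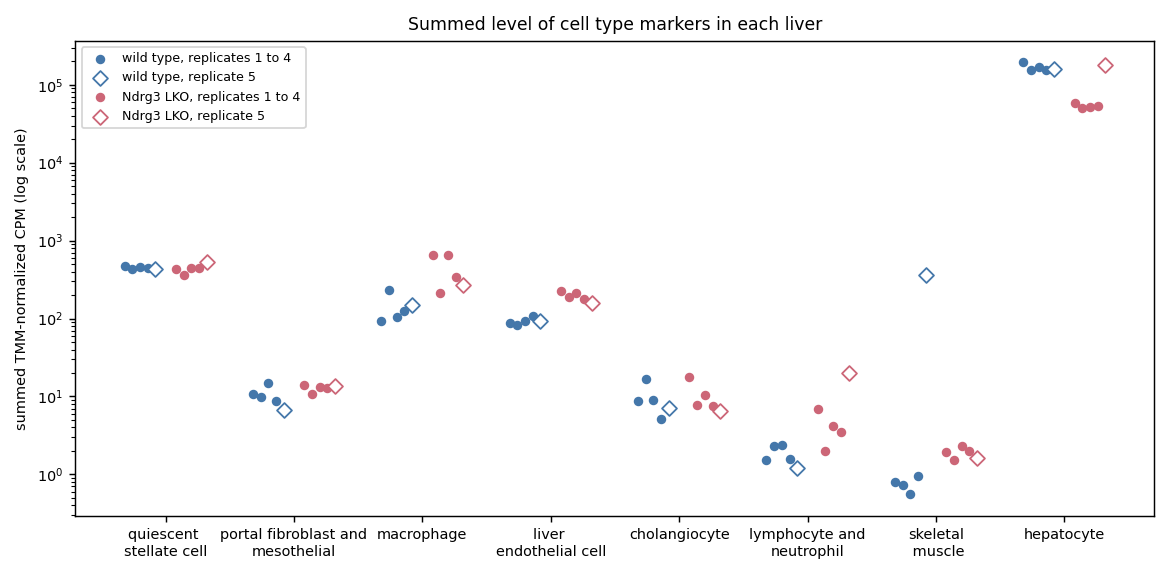
Summed TMM-normalized CPM of the markers of each cell type in every liver, on a logarithmic axis. Filled circles are replicates 1 to 4 of each group, and open diamonds are replicate 5 (blue, wild-type; red, Ndrg3 LKO). Macrophage and endothelial sums are higher in Ndrg3 LKO livers on average, the skeletal muscle sum of wild-type replicate 5 is at 358 CPM, and the hepatocyte sum of Ndrg3 LKO replicate 5 is at 179003 CPM, among the wild-type livers.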

How the data were processed

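The authors prepared stranded libraries, mapped paired reads to mm9 and used STAR for the gene counts. The submitters' processing notes name bcl2fastq, Trim Galore 0.6.4, STAR 2.7.3a and Cufflinks 2.2.1. Per the file names the deposited values would be CPM, but they are whole-number counts with a different total in each liver and were used as raw counts. The annotation and strand setting of the counting are not given in the sources used here.

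Counts were analysed with R 4.3.3. Genes that reached 1 CPM by library size, before TMM scaling, in 5 or more livers (4 when a liver was left out) were tested with edgeR 4.0.16 (TMM, quasi-likelihood test, Benjamini-Hochberg over all genes tested, threshold 0.05). Standard errors come from the log2 fold change and its F statistic. Exact permutation tests compared mean log2(CPM + 1), 2-sided, over all splits of the 10 livers. Ratios of summed counts of *Timp1*, *Lox* and *Mmp12* have 95% exact intervals that cover counting error only. Exon lengths and positions come from the GENCODE annotation of NCBIM37 (mm9), in which 20945 of 24052 symbols were found, and promoters from RefSeq GRCm38.p6. Of each list, up to 3 changed genes with the largest fold change, groups apart and a mean of 1 CPM or more in the higher group were named, otherwise the most abundant gene. Of marker lists the most abundant gene was also named.

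Alternatives were median-of-ratios, library-size and quantile scaling, no filter on low counts, a mean CPM of at least 0.2, pseudocounts of 0.1 and 5, DESeq2 1.42.0, limma 3.58.1, the replicate number as a block and each liver left out. Leaving out replicate 5 of both groups, and the alternatives for nearest genes, were added after seeing the data. The 10 genes and all lists were chosen with earlier results of these data known. The tests were checked on simulated counts. No pair of libraries of a group was identical (chi-square per degree of freedom at least 27.2 in all 20 pairs).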

Additional observations from a re-analysis of the deposited data

Results flagged for a closer look

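In each group of 5 livers, the levels of the 10 genes and of *Ndrg3* and the summed levels of the lists were checked for a liver whose gap to the next exceeded 0.71 of the whole range, which happens by chance in about 1 of 20 groups. Of 60 groups checked, 8 held such a liver, in all cases replicate 5. *Des* stood out in wild-type replicate 5 at 21.5 CPM, with the other wild-type livers at 1.66 to 3.60 CPM. The skeletal muscle markers of the same liver summed to 358 CPM against 0.558 to 0.966 CPM, and its contractile and cytoskeletal genes to 128 CPM against 38.1 to 53.9 CPM. Without this liver, the log2 fold change of *Des* was 0.57 in place of -0.62.

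Ndrg3 LKO replicate 5 stood out for hepatocyte markers, at 179003 CPM against 50616 to 58923 CPM in the other Ndrg3 LKO livers. It also stood out for lymphocyte and neutrophil markers, at 20.1 CPM against 2.01 to 6.82 CPM, and for metalloproteinase inhibitors, at 51.6 CPM against 28.5 to 35.0 CPM. Exocrine pancreas markers were at 0.472 CPM in Ndrg3 LKO replicate 5, with the others at 0 to 0.0258 CPM. In wild-type replicate 5 they were at 0.0596 CPM, under the floor of 3 counts, with the others at 0.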

How the results depend on the processing

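Over 19 alternatives, between 4 and 6 of the 10 genes rose and none fell, and *Tgfb1*, *Pdgfrb*, *Loxl2* and *Mmp2* were among them every time. The number of genes changed stayed between 4412 and 6839 (5443 as reported) and that of pathway genes between 38 and 52 (41 as reported). *Acta2* passed in 6 of 19 and *Reln* in 3 of 19. With library-size scaling, which moved the median of all genes to 0.56, *Acta2* had a log2 fold change of 1.72 (adjusted p = 0.00619, edgeR) and *Reln* one of 0.92 (adjusted p = 0.000567), or 1.16 and 0.36 relative to that median. Values that changed sign were those of *Des*, at -0.88 to 0.57 when single livers were left out, the last without wild-type replicate 5, 0.53 without replicate 5 of both groups and 0.040 with the replicate block, and of *Smad4*, at 0.035 with library-size scaling. The difference of mean log2 CPM of *Des*, -0.04 as reported, was 0.022 with a pseudocount of 0.1 and 0.37 with library-size scaling. The cause was not tested.

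Replicate numbers are shared by the groups, but livers with the same number did not deviate together (correlations from -0.357 to 0.0363, 0 of 5 over 0.1). This gave no sign of pairing, although so few pairs cannot exclude it, and the livers were compared unpaired. With the replicate block, 4412 genes changed, 5 of the 10 genes rose and 39 pathway genes changed, and *Acta2* passed with a log2 fold change of 1.38 (adjusted p = 0.0457, edgeR). With the block, *Entpd2* (-0.74, adjusted p = 0.0810) and *Clec4f* (1.10, adjusted p = 0.0626) no longer passed. By library size alone, 5 contractile genes, 2 metalloproteinase inhibitors, 2 portal and 2 cholangiocyte markers rose in place of 3, 1, 1 and 0. With this scaling, 5834 of all 11208 genes tested rose, in place of 2865. At the depth of these libraries, *Lox* and *Timp1* had 0 to 19 counts per liver, which limits what can be said of them.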

Other observations

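Some genes of the lists were too low to be tested with all 10 livers but had single livers or groups at higher levels, and are given as values chosen after they had been seen. The tenascin gene *Tnc* was highest in Ndrg3 LKO replicate 5, at 1.61 CPM against 0.218 to 0.777 CPM in the other Ndrg3 LKO livers. The metalloproteinase genes *Mmp7* and *Mmp9* were highest in Ndrg3 LKO replicates 1 and 3, at 5.96 and 6.44 CPM for *Mmp7* and 2.10 and 1.52 CPM for *Mmp9*. In replicates 4 and 5, where *Mmp12* was highest, *Mmp7* was at 0.457 and 0.0944 CPM. *Mmp7* could be tested when a liver was left out, with a log2 fold change of 2.27 (adjusted p = 0.0102, edgeR) without Ndrg3 LKO replicate 5 and 1.82 (adjusted p = 0.124) without wild-type replicate 5. *Mmp13*, a collagenase, was at 0.599 and 0.567 CPM in replicates 4 and 5 and at 0.0243 to 0.206 CPM in replicates 1 to 3, while wild-type livers had 0 to 0.112 CPM. Among macrophage genes, *Gpnmb* was at 0 to 0.138 CPM in wild-type and 0.897 to 3.71 CPM in Ndrg3 LKO livers, and *Trem2* at 0 to 0.245 and 0.461 to 2.77 CPM. When a liver was left out, both entered the test only through Ndrg3 LKO livers. *Gpnmb* then had a log2 fold change of 4.72 (adjusted p = 1.09e-05, edgeR) without Ndrg3 LKO replicate 5 and 4.26 (adjusted p = 0.000260) without wild-type replicate 5, and *Trem2* one of 3.18 (adjusted p = 0.00331) without the latter.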
